A study of Drosophila melanogaster and Drosophila mauritiana and Drosophila simulans with 22 samples.

Results

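Mitochondrial ribosomal protein genes were followed in the testes of 4 Drosophila species and 3 kinds of hybrid males. The genes were taken as every array row whose single symbol in the platform's probe table began with mRpL or mRpS and a number. This gave 48 of 6793 genes with 1 symbol, on 108 of 27648 array rows. The list held 29 genes of the large subunit (mRpL) and 19 of the small subunit (mRpS), and 37 of the 48 had enough values to be tested in all 7 groups. The 22 arrays set testis RNA against RNA of whole D. melanogaster males. The hybrid males had D. simulans mothers (strain 14021-0251.2) and are named here by the father: D. melanogaster (strain 14021-0231.00, 3 arrays), D. mauritiana (strain 14021-0241.1, 3 arrays) or D. sechellia (a line given without a stock number, 3 arrays). The species were D. mauritiana (4 arrays), D. sechellia, D. simulans and D. melanogaster (3 arrays each), of the same strains as the parents as far as the labels give them. All testes came without accessory glands from males aged 4 days, in pools of 200 testes, and the whole males were of the D. melanogaster strain. A ratio is therefore the signal of testis RNA over that of the whole male on the log2 scale, with each array centred on its median, and the rows of a gene were averaged.

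The mitochondrial ribosome translates the few proteins encoded in mitochondrial DNA, which are core subunits of the respiratory chain and of ATP synthase. Its proteins are all encoded in the nucleus, made in the cytosol and imported, and they include counterparts of bacterial ribosomal proteins as well as proteins found only in mitochondrial ribosomes. In fly testes the mitochondria of each spermatid fuse into a large structure, the nebenkern, which elongates along the sperm tail, and spermatogenesis is known for its use of testis-specific copies of respiratory chain genes.

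The labels call the arrays replicates. The p-values rest on a single spread per gene, pooled over the replicates of all 7 groups, so noisy groups enter every comparison. For mRpS17 the SD between arrays was 2.72 in sechellia and 0.60 in mauritiana. For such a gene the pooled SE tends to be too small for sechellia and too large for quieter groups. Arrays 1 and 2 of simulans, 1 and 2 of melanogaster, and 1 and 3 of the sechellia hybrid differed from each other by only 1.0, 1.27 and 1.39 times the noise of duplicate spots, against 1.58 or more for other pairs of a group. If such pairs were repeat runs of 1 pool, the standard errors and p-values below would be too small, so the counts of calls below are also given with each pair averaged into 1 array. The sechellia arrays stood apart. There the SD of a single spot of the mitochondrial ribosomal protein genes, estimated from differences between duplicate spots, was 1.32 to 1.62. It was 0.192 to 0.535 on the other 19 arrays. Up to 2703 of the values of a sechellia array were exactly 0. Most markers of other organs were lower in melanogaster testes than in whole males, with all 9 gut and 4 of 5 accessory gland genes tested called lower and 3 of 5 late spermatid genes called higher.

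As a group, the mitochondrial ribosomal protein genes tested had a median close to the whole-male level in melanogaster testes. Their median log2 ratio was 0.09, against 0.18 for all 5107 genes tested, and turned to -0.12, against 0.03, when arrays were not centred. For the 22 genes with a value on all 22 arrays it was 0.68, against 0.51 for all such genes. Individual genes spread widely around that median. With limma and Benjamini-Hochberg adjustment over all genes tested, 15 of 37 (40.5%) passed an adjusted p of 0.05, beside 44.3% of all genes. Of these, 12 were higher in testes (32.4%, beside 30.4% of all genes) and 3 were lower (8.11%, beside 13.9%). The share called lay near that of all genes.

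The gene furthest from the others was mRpS34, which codes for a protein found only in mitochondrial ribosomes and whose human counterpart is mutated in a form of Leigh syndrome. Its log2 ratio was -3.80, -3.75 and -4.72 on the 3 melanogaster arrays, the lowest of all 48 genes. The fitted ratio was -4.09 (SE 0.32, n = 3 arrays, limma adjusted p = 3.41e-08). Its rows agreed, with a mean range between them of 0.19 outside sechellia. The other calls below whole males were smaller. mRpL40 had ratios of -0.93, -0.98 and -1.24 (fitted -1.05, SE 0.25, limma adjusted p = 0.0020), and mRpS9, whose bacterial counterpart reaches toward the tRNA site of the small subunit, had -0.56, -0.68 and -1.31 (fitted -0.85, SE 0.28, limma adjusted p = 0.0188). mRpL38 (-1.0, -0.99 and -0.65) and mRpL22 (-1.12, -1.18 and -0.27) were as low in melanogaster but had too few values elsewhere to be tested.

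At the other end stood mRpS18B, one of several mitochondrial variants of bacterial S18. Its log2 ratios were 2.21, 2.45 and 1.56 in melanogaster testes, a fitted 2.07 above whole males (SE 0.51, limma adjusted p = 0.0024). mRpS16, a small-subunit protein with a bacterial counterpart, had 1.59, 1.51 and 1.68 (fitted 1.59, SE 0.29, limma adjusted p = 0.000145). All 3 arrays thus put both genes above the whole male. mRpS35 was higher by 1.32, mRpS22 by 1.25, mRpL15 by 1.18 and mRpL24 by 1.13, with SEs of 0.27 to 0.33, and mRpL37 by 1.51 (SE 0.43). The remaining 5 genes called higher were 0.70 to 1.12 above whole males.

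Small-subunit genes had higher ratios than large-subunit genes in melanogaster. The array medians were 0.23 to 0.92 over 16 small-subunit genes and -0.15 to 0.21 over 21 large-subunit genes. Of the small-subunit genes 9 were called (7 higher, 2 lower), and of the large-subunit genes 6 (5 higher, 1 lower), beside 44.3% of all genes. The difference between subunits was not tested. In mauritiana hybrids the array medians of the subunits overlapped (small subunit -0.19 to 0.16, large subunit -0.21 to 0.06). They also overlapped in mauritiana (small -0.42 to 0.16, large -0.71 to -0.39). The same held in sechellia (small -1.04 to -0.58, large -0.82 to -0.32) and sechellia hybrids (small -0.51 to -0.05, large -0.51 to -0.31). In simulans and melanogaster hybrids the small-subunit medians lay above the large-subunit medians. By number alone, 19 genes with numbers within the bacterial range had array medians of 0.21 to 0.64 in melanogaster, and 18 genes with higher numbers had -0.13 to 0.07. With the closest pairs averaged 8 of the 37 genes were called, all among the 15, and 9 were called without melanogaster array 1 or without array 2. Testis RNA was amplified and carried Cy5 on every array while whole-male RNA, for which no amplification is described, carried Cy3, so effects of dye or amplification cannot be told apart from testis enrichment, and in RNA of whole organs fewer cells of a type and less RNA per cell cannot be told apart.

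**Figure D1:**
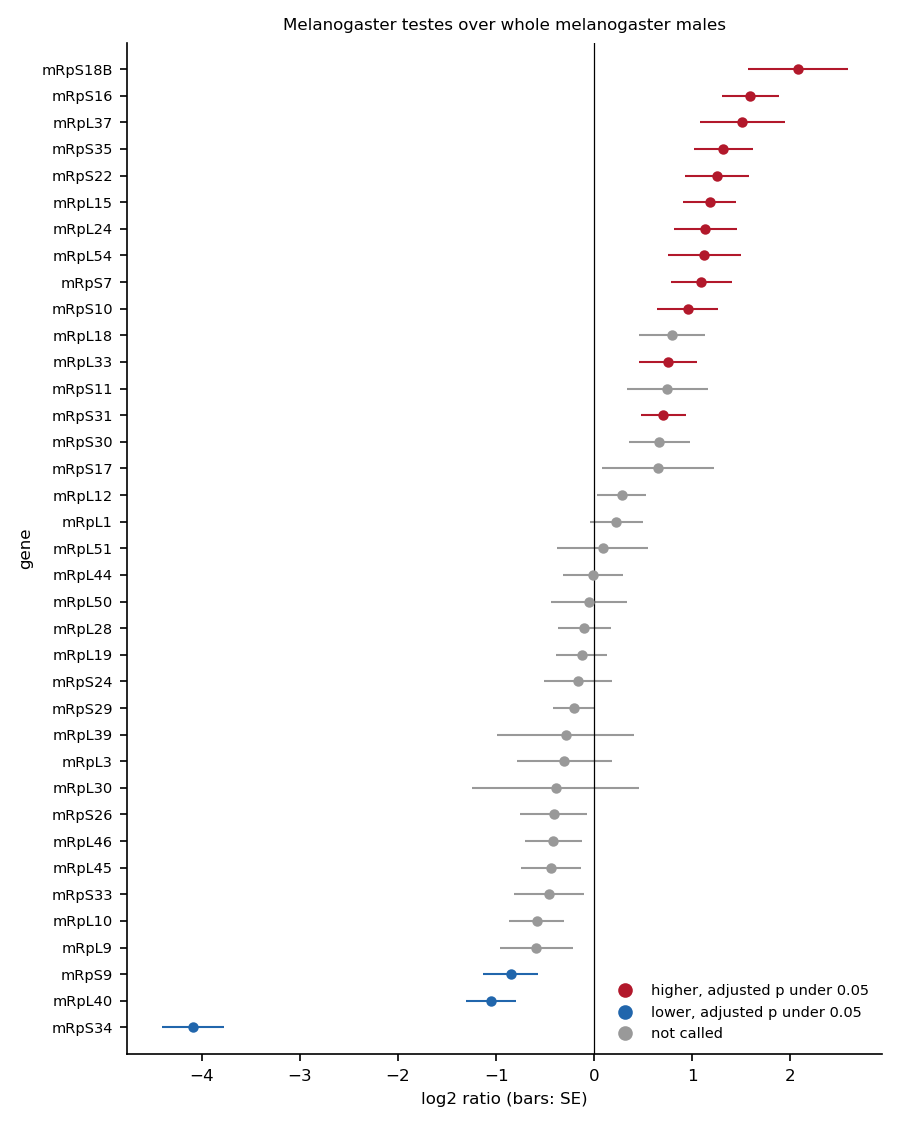
Log2 ratio of melanogaster testes over whole melanogaster males for the 37 mitochondrial ribosomal protein genes tested (points, limma estimate; bars, SE; 3 arrays), ordered by ratio. The 12 genes called higher are in red, the 3 called lower in blue, and mRpS34 lies at -4.09, far below the rest.

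Across groups, the median of the list was lower in mauritiana, sechellia and sechellia hybrid testes than in simulans or melanogaster testes after centring. The median of the 37 genes per array was -0.22 to 0.03 in melanogaster hybrids, -0.21 to 0.11 in mauritiana hybrids, -0.47 to -0.18 in sechellia hybrids, -0.57 to -0.30 in mauritiana, -0.94 to -0.39 in sechellia, -0.09 to 0.09 in simulans and 0.02 to 0.39 in melanogaster. The mauritiana, sechellia and sechellia hybrid arrays did not overlap those of simulans or melanogaster. The array medians of all genes tested also moved. They were 0.04 to 0.29 in melanogaster, -0.03 to 0.08 in simulans and -0.07 to 0.18 in mauritiana. In sechellia they were -0.14 to -0.11 and in sechellia hybrids -0.11 to 0.07. The sechellia arrays were thus lower for all genes tested as well. Mauritiana arrays lacked 25.4 to 51.8 percent of their values and those of the sechellia hybrid 11.3 to 52.9 percent, against at most 11.5 percent in simulans and melanogaster. The part of missing values in these medians was not tested. The array was printed for D. melanogaster, and weaker binding of RNA from another species cannot be told apart from a lower RNA level.

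**Figure D2:**
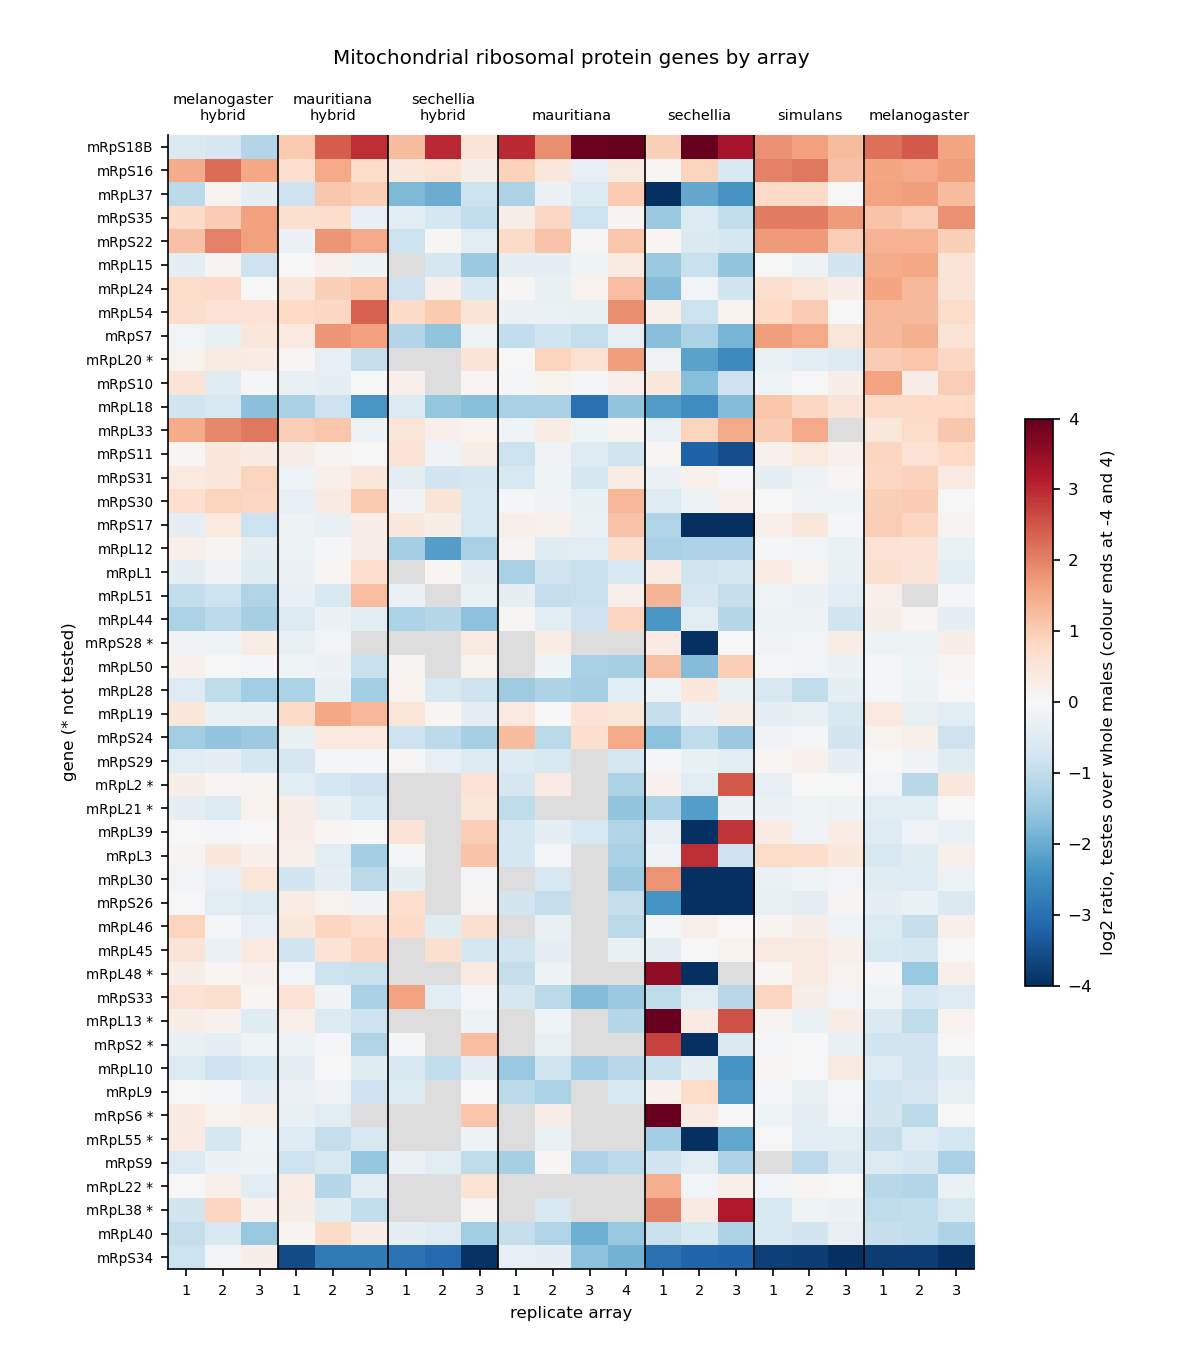
Log2 ratio of testes over whole melanogaster males for all 48 mitochondrial ribosomal protein genes (rows, ordered by their melanogaster mean) on 22 arrays (columns, grouped). Red is higher in testes, blue lower and grey has no value; mRpS34 is blue on the arrays of 5 groups, lighter in mauritiana, and near 0 in melanogaster hybrids, where 1 array is at 0.23, and the sechellia columns scatter most.

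The 11 genes not tested were mRpL2, mRpL13, mRpL20, mRpL21, mRpL22, mRpL38, mRpL48, mRpL55, mRpS2, mRpS6 and mRpS28, each with fewer than 2 values in the sechellia hybrid or in mauritiana. mRpL22 had no value on any mauritiana array. Among them mRpL20 had the highest melanogaster ratios, at 1.02, 1.12 and 0.83, beside -0.26, -0.42 and -0.54 in simulans. All 3 melanogaster arrays lay above all 3 simulans arrays for that gene. It was singled out after its values were seen.

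Simulans testes were set against melanogaster testes. None of the 37 genes was called (limma adjusted p), beside 1.06% of all genes tested, and 2 had an unadjusted p under 0.05. These 2 were mRpL15, at -0.02, -0.19 and -0.77 in simulans and 1.47, 1.54 and 0.52 in melanogaster, and mRpS31, at -0.38, -0.19 and 0.09 in simulans and 0.84, 0.91 and 0.35 in melanogaster. In both genes the simulans arrays lay below all melanogaster arrays. Same-numbered arrays of these 2 species deviated together, with correlations of 0.17 to 0.29, and with the replicate number as a block mRpL15 was called (difference -1.50, limma adjusted p = 0.0222, against 0.0643 without the block). No gene was called by limma with the closest pairs averaged, and 1 had an unadjusted p under 0.05. Other fits gave more calls: 24 of the 37 genes were called with array weights. A fit to only the arrays of these 2 species also called some. The absence of calls thus depended on the fit, and the shares of all genes in those fits are not given. mRpS34 was as low in simulans as in melanogaster, with -3.73, -3.76 and -4.07. With single arrays left out, 1 gene was called without melanogaster array 3, sechellia array 1, sechellia array 2 or sechellia hybrid array 2.

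Mauritiana testes held most mitochondrial ribosomal protein genes below melanogaster testes: 33 of 37 (89.2%) had a difference below 0, beside 60.8% of all genes tested. The median difference was -0.60, against -0.19 for all genes. All mauritiana arrays lay below all melanogaster arrays for 17 genes (45.9%, beside 19.9% of all genes) and above them for 1 (2.7%, beside 9.73%). Against simulans testes, 27 of 37 (73%) were below 0, beside 56.5% of all genes, with a median of -0.70 against -0.13. All mauritiana arrays lay below all simulans arrays for 18 genes (48.6%, beside 19.9% of all genes) and above them for 3 (8.11%, beside 16%). Few of these differences passed the test one by one. Against melanogaster 4 genes were called (10.8%, beside 6.64% of all genes). Of these 1 was higher (2.7%, beside 2.19%) and 3 were lower (8.11%, beside 4.44%). Against simulans 7 were called (18.9%, beside 11% of all genes), 1 higher (2.7%, beside 6.74%) and 6 lower (16.2%, beside 4.29%).

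The gene higher in mauritiana was mRpS34. Its log2 ratios were -0.33, -0.37, -1.63 and -1.90 in mauritiana, against -3.73, -3.76 and -4.07 in simulans and -3.80, -3.75 and -4.72 in melanogaster. No mauritiana array reached down to the arrays of either other species. The difference was 2.80 from simulans (SE 0.42, limma adjusted p = 0.000457) and 3.04 from melanogaster (SE 0.42, limma adjusted p = 0.000431). The mauritiana arrays themselves fell into a higher and a lower pair for this gene.

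mRpL18, whose bacterial counterpart binds the 5S ribosomal RNA, was lower in mauritiana. It had -1.28, -1.30, -2.97 and -1.57 in mauritiana, against 1.10, 0.82 and 0.51 in simulans and 0.78, 0.81 and 0.79 in melanogaster. All mauritiana arrays were below 0 and all arrays of the other species above it. The difference was -2.59 from simulans (SE 0.44, limma adjusted p = 0.0013) and -2.57 from melanogaster (SE 0.44, limma adjusted p = 0.0023).

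mRpS7, whose bacterial counterpart organises the head of the small subunit, had -0.99, -0.80, -0.95 and -0.33 in mauritiana, against 1.66, 1.52 and 0.48 in simulans and 1.30, 1.42 and 0.56 in melanogaster. In mauritiana it fell by 1.99 on the log2 scale against simulans (SE 0.42, limma adjusted p = 0.0063) and fell by 1.86 against melanogaster (SE 0.42, limma adjusted p = 0.0119). The species again did not overlap. mRpL15 was also called against melanogaster (-1.33, limma adjusted p = 0.0299), and mRpS35 (-1.87), mRpS33 (-1.58), mRpS16 (-1.42) and mRpL10 (-1.32) against simulans, with limma adjusted p of 0.0063 to 0.0356.

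With the closest pairs averaged, mRpS34 and mRpL18 were the 2 genes called in each of these comparisons, with limma adjusted p of 0.0060 and 0.0325 against melanogaster and 0.0064 and 0.0167 against simulans. The counts moved with single arrays: against melanogaster 2 genes without melanogaster array 1 or 2, 7 without mauritiana array 2, 8 without mauritiana array 4, 10 without sechellia array 1 and 9 without sechellia array 2, and against simulans 4 without simulans array 1, simulans array 2 or mauritiana array 3. Without all sechellia arrays they were 11 against melanogaster and 13 against simulans. Of 5 accessory gland markers 3 were higher in mauritiana than in melanogaster testes, with array medians of -1.83 to -0.60 in mauritiana and -4.03 to -3.71 in melanogaster, and their part in these results was not tested. Against simulans, with array medians of -3.07 to -1.81, 1 of these markers was higher and 1 lower in mauritiana. No late spermatid marker was called by limma in mauritiana against either species, with array medians of 0.68 to 2.28 in mauritiana, 1.05 to 1.44 in simulans and 1.67 to 2.32 in melanogaster.

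**Figure D3:**
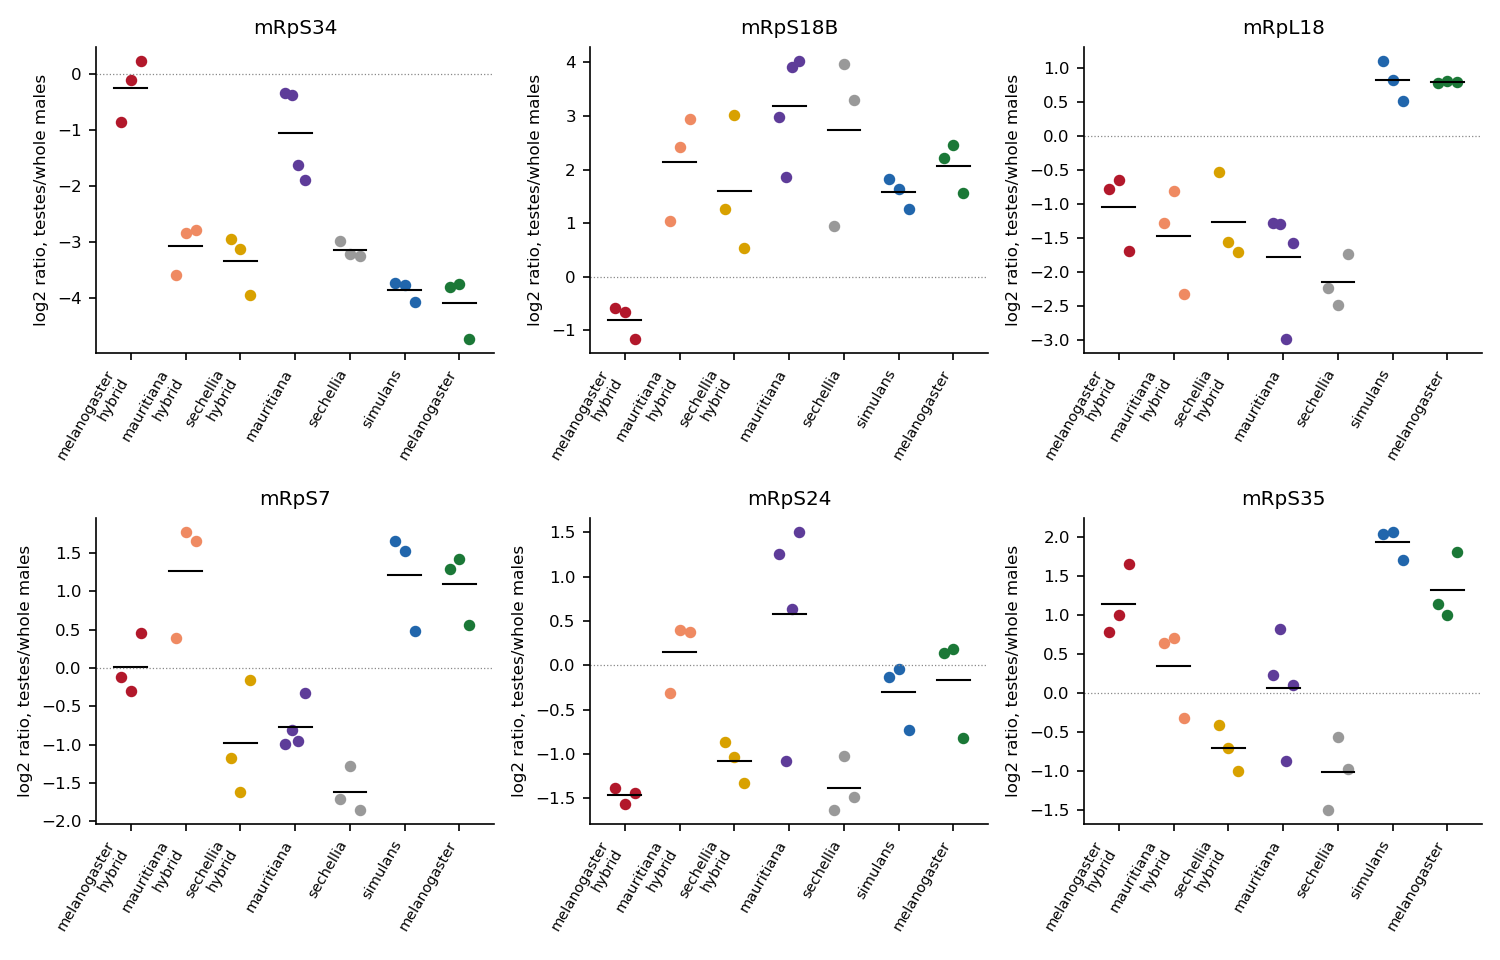
Log2 ratio of testes over whole melanogaster males for 6 mitochondrial ribosomal protein genes on each array (points) by group, with the group mean as a bar. mRpS34 is highest in melanogaster hybrids and mauritiana, mRpS18B falls below 0 in melanogaster hybrids alone, and mRpL18 is above 0 in simulans and melanogaster alone.

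Sechellia testes gave the most calls between species, all of them lower: 14 of 37 genes against melanogaster (37.8%, beside 33.7% of all genes called and 26.1% called lower) and 12 against simulans (32.4%, beside 26.2% called and 19.5% called lower). These rest on the noisy sechellia arrays, and for several genes the 3 arrays went far apart. mRpS17, whose bacterial counterpart binds ribosomal RNA early in assembly, had -1.21, -5.69 and -6.13 in sechellia, against 0.20, 0.44 and -0.09 in simulans and 1.0, 0.86 and 0.10 in melanogaster. Its group means spanned 5.0, the widest of all genes, and sechellia alone made that range. mRpS26, a protein of mitochondrial ribosomes only, had -2.38, -4.80 and -4.82 in sechellia, against -0.31, -0.38 and 0.12 in simulans and -0.39, -0.27 and -0.57 in melanogaster. mRpL37, of the same kind, had -4.13, -2.04 and -2.35 in sechellia, against 0.81, 0.77 and 0.01 in simulans and 1.62, 1.66 and 1.26 in melanogaster. For all 3 genes every sechellia array lay below every array of the other species.

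Some genes with steadier sechellia values were lower there too, and those given here were picked from the genes called. Other steady genes were not called. mRpL46 had a mean of 0.06 in sechellia (SD 0.12), against 0.08 in simulans and -0.42 in melanogaster. mRpS29 had -0.26 in sechellia (SD 0.21), against -0.05 in simulans and -0.21 in melanogaster. mRpL18 had -2.22, -2.48 and -1.74 in sechellia, beside the positive simulans and melanogaster values above (difference -2.96 from simulans and -2.94 from melanogaster, SE 0.47, limma adjusted p = 0.000198 and 0.000107). mRpS7 had -1.70, -1.28 and -1.85 (difference -2.83 from simulans and -2.70 from melanogaster, SE 0.45, limma adjusted p = 0.000176 and 0.000135). mRpL15 fell by 2.50 on the log2 scale in sechellia against melanogaster, and mRpS35 fell by 2.94 against simulans, with SEs of 0.38 and 0.42. mRpS34 had -2.98, -3.22 and -3.24 in sechellia and was called against neither simulans nor melanogaster. Averaging the closest pairs left 12 genes called against melanogaster and 7 against simulans, all among those reported. None of those pairs is of sechellia arrays. A fit to only the arrays of the 2 species compared called 8 genes against melanogaster and 6 against simulans. It lost the calls of mRpS17 (limma adjusted p = 0.0522 and 0.0904), mRpS11 and mRpS16 in both.

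Markers of other cell types also differed in sechellia. Of 5 late spermatid markers 3 were called against melanogaster, 1 higher and 2 lower, and 2 against simulans, 1 in each direction, with array medians of -0.44 to 1.46 in sechellia, 1.05 to 1.44 in simulans and 1.67 to 2.32 in melanogaster. Of 5 eye markers 3 were lower than in simulans and 1 lower than in melanogaster, with array medians of -2.73 to -1.34 in sechellia, -1.61 to -1.27 in simulans and -1.47 to -1.0 in melanogaster. Of 5 accessory gland markers 2 were lower than in simulans and 1 lower than in melanogaster, with array medians of -4.44 to -3.43 in sechellia, -3.07 to -1.81 in simulans and -4.03 to -3.71 in melanogaster. Of the muscle, gut and fat body markers, 1 to 2 of each list were called against either species, all lower but 1 fat body gene against melanogaster. The part of these markers in the sechellia calls was not tested.

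Mauritiana against sechellia testes gave 10 calls of 37 (27%, beside 22.8% of all genes), 9 higher (24.3%, beside 16.5%) and 1 lower (2.7%, beside 6.36%). mRpS17 was higher by 4.66 (SE 0.76), mRpS26 by 3.12 (SE 0.48), mRpL37 by 2.59 (SE 0.57), mRpS34 by 2.09 (SE 0.42), mRpS24 by 1.96 (SE 0.46) and mRpL12, the stalk protein, by 1.22 (SE 0.33). mRpL28 fell by 1.11 on the log2 scale (SE 0.36). In mRpS24 the arrays overlapped, with 1.26, -1.08, 0.64 and 1.51 in mauritiana and -1.63, -1.02 and -1.49 in sechellia. Several of these sizes depended on the scaling: with quantile normalization the differences were 2.55 for mRpS17, 1.06 for mRpS26, 1.56 for mRpL37, 0.65 for mRpS34 and 1.38 for mRpS24. The calls of mRpL37 and mRpS34 were lost there (limma adjusted p = 0.0903 and 0.397). That of mRpS34 was also lost with arrays scaled to 1 spread (limma adjusted p = 0.0666). Quantile normalization lost the calls of mRpL12, mRpL15, mRpL44 and mRpS11 too. The call of mRpL12 held in 6 of 12 alternative settings. That of mRpL28 was lost with arrays scaled to 1 spread and held in 9 of 12. Between mauritiana and sechellia, 3 of 5 late spermatid markers were called (2 higher, 1 lower), 2 of 5 accessory gland markers were higher, and of 9 gut markers 3 were higher and 1 lower. Of the muscle, eye and fat body lists 1 marker each was higher, and the part of these markers was not tested. Averaging the closest pairs left 8 of the 10 calls. When the fit used the arrays of these 2 species alone, limma called 0 genes, with 9 at an unadjusted p under 0.05.

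Melanogaster hybrid testes were set against the mean of their parents, simulans and melanogaster. Of 37 mitochondrial ribosomal protein genes 7 were called (18.9%, beside 32% of all genes), 1 higher (2.7%, beside 12.4%) and 6 lower (16.2%, beside 19.6%). The median difference was -0.22, against 0.03 for all genes, and was 0.02 without hybrid array 3. All hybrid arrays lay outside all parental arrays for 8 genes (21.6%, beside 43.8% of all genes). The list thus held a smaller share of changed genes than the array as a whole, a difference in shares that was not tested.

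The gene that rose was mRpS34, the one with the lowest ratio in both parents. It had -0.86, -0.11 and 0.23 in melanogaster hybrids, against -3.73, -3.76 and -4.07 in simulans and -3.80, -3.75 and -4.72 in melanogaster. The hybrid arrays were near the whole-male level and apart from every parental array. The difference from the parental mean was 3.73 (SE 0.39, limma adjusted p = 2.41e-07), and the hybrid was above simulans by 3.61 and above melanogaster by 3.85 (limma adjusted p = 4.68e-06 and 1.18e-06).

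The gene with the highest ratio in melanogaster fell. mRpS18B had -0.59, -0.66 and -1.16 in melanogaster hybrids, against 1.82, 1.63 and 1.27 in simulans and 2.21, 2.45 and 1.56 in melanogaster. Every hybrid array was below 0 and every parental array above 1. The difference from the parental mean was -2.63 (SE 0.62, limma adjusted p = 0.0024). mRpL18 had -0.78, -0.65 and -1.69 in melanogaster hybrids, against 1.10, 0.82 and 0.51 in simulans and 0.78, 0.81 and 0.79 in melanogaster. Its difference was -1.84 (SE 0.41, limma adjusted p = 0.0013). These 3 genes were also called in the same direction against each parent (8.11% of 37, beside 20.1% of all genes). The call of mRpS18B against simulans was lost with the closest pairs averaged (limma adjusted p = 0.0791).

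The other 4 genes called lower had smaller differences. mRpS7 had -0.12, -0.29 and 0.45 in melanogaster hybrids, each below all parental arrays (difference -1.14, SE 0.39, limma adjusted p = 0.0273). mRpS24 had -1.39, -1.57 and -1.44 in hybrids, against -0.13, -0.04 and -0.73 in simulans and 0.14, 0.19 and -0.82 in melanogaster (difference -1.24, SE 0.43, limma adjusted p = 0.0309). mRpL44 had -1.28, -1.06 and -1.32 in hybrids and did not overlap the parents either (difference -1.01, SE 0.38, limma adjusted p = 0.0443). mRpL37 had -1.08, 0.13 and -0.36 in hybrids, overlapping 0.01 on simulans array 3 (difference -1.46, SE 0.53, limma adjusted p = 0.0386).

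With the closest pairs averaged mRpS34, mRpS18B and mRpL18 were the 3 genes called, and 3 were called without melanogaster array 1 or 2, simulans array 1 or 2, or hybrid array 1, and 4 without hybrid array 2 or 3. All 5 late spermatid markers were lower in melanogaster hybrids, with array medians of -2.66 to -1.82 in hybrids, 1.05 to 1.44 in simulans and 1.67 to 2.32 in melanogaster. Of 5 accessory gland markers 4 were higher and 1 was lower, with array medians of 0.48 to 0.97 in hybrids, -3.07 to -1.81 in simulans and -4.03 to -3.71 in melanogaster. Of 8 muscle markers 1 was higher and 3 were lower, with array medians of -3.42 to -3.21 in hybrids, -1.83 to -1.15 in simulans and -1.74 to -1.60 in melanogaster. Of 5 fat body markers 3 were higher, with array medians of -0.83 to -0.33 in hybrids, -1.04 to -0.83 in simulans and -0.96 to -0.68 in melanogaster. Of the other lists, 2 of 5 eye and 1 of 9 gut markers were higher. The part of any marker set in the changes of mitochondrial ribosomal protein genes was not tested.

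**Figure D4:**
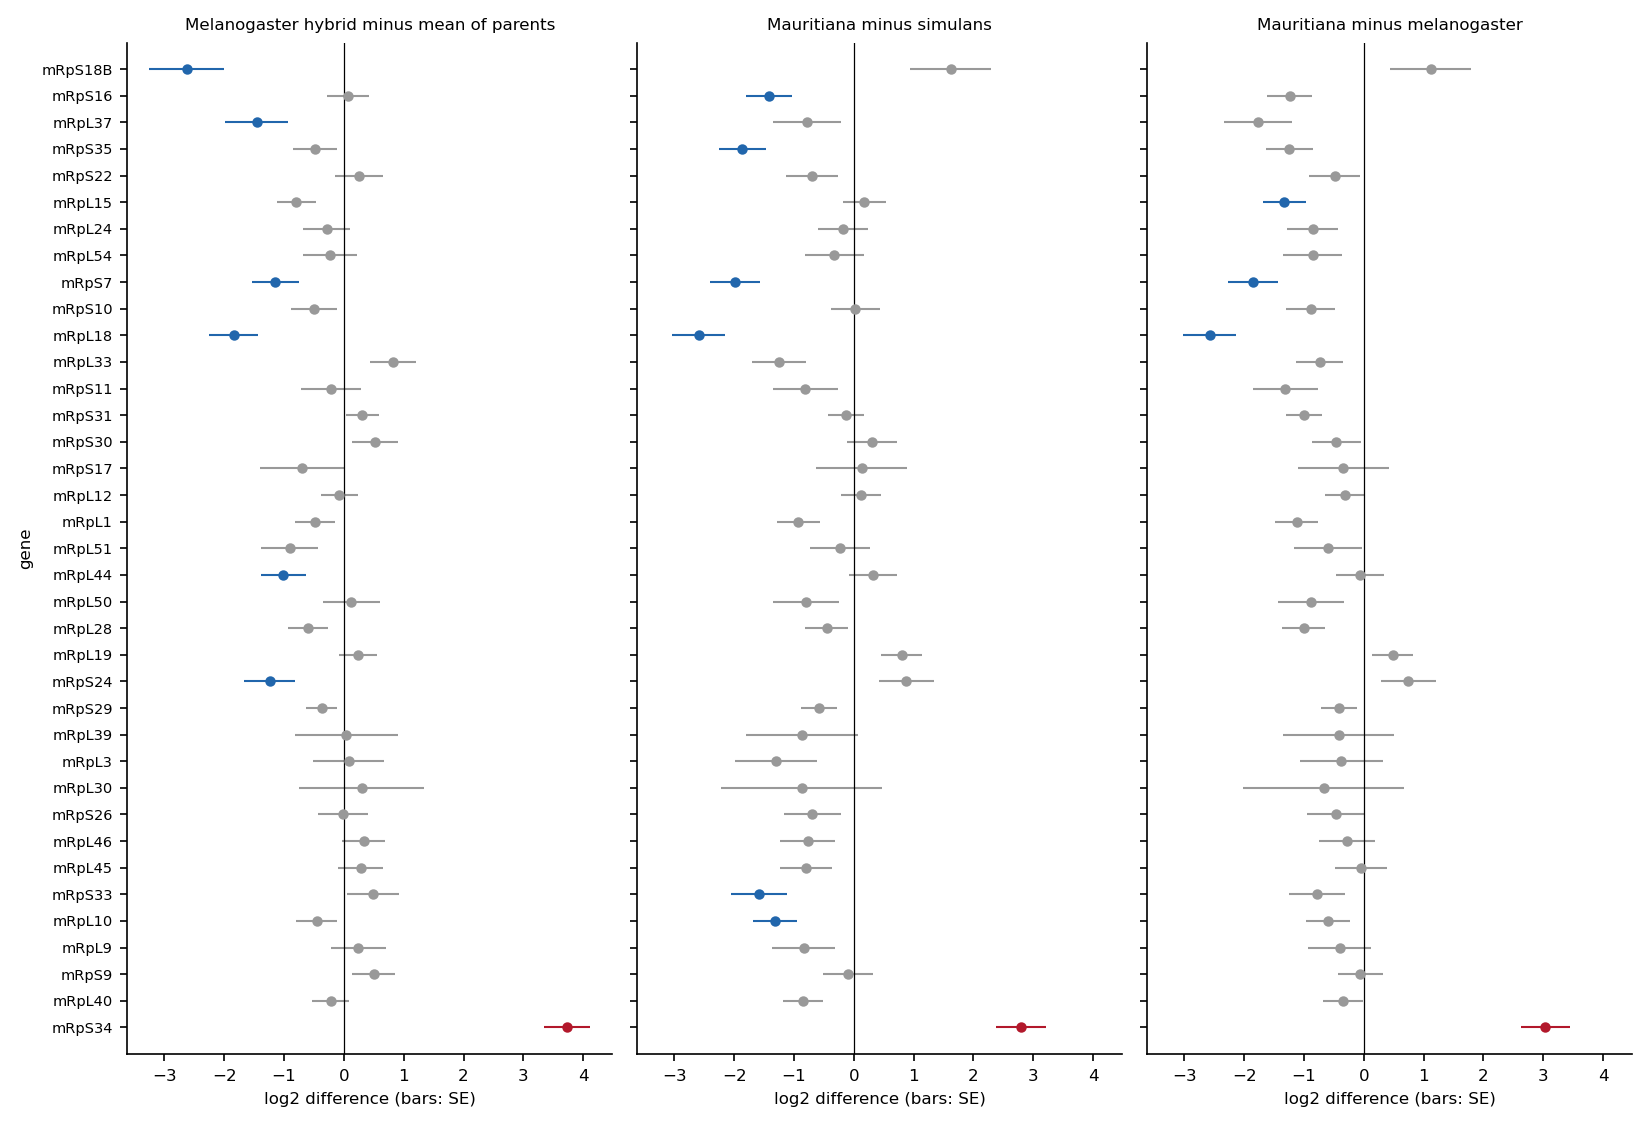
Log2 differences (points, limma estimates; bars, SE) of the 37 mitochondrial ribosomal protein genes tested for the melanogaster hybrid minus the mean of its parents (left), mauritiana minus simulans (middle) and mauritiana minus melanogaster (right); genes in the order of their melanogaster ratio, red called higher and blue called lower. mRpS34 is far to the right in each panel, at 3.73, 2.80 and 3.04; the middle panel shares simulans arrays, and the right panel melanogaster arrays, with the left one.

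Mauritiana hybrid testes differed less from their parents, simulans and mauritiana. Of 37 genes 2 were called, both higher (5.41%, beside 2.33% of all genes called and 1.78% called higher). mRpL40, a protein of mitochondrial ribosomes only, had 0.12, 0.76 and 0.27 in mauritiana hybrids, against -0.94, -1.20, -1.95 and -1.52 in mauritiana and -0.62, -0.72 and -0.33 in simulans. mRpL19, whose bacterial counterpart sits at the interface with the small subunit, had 0.77, 1.54 and 1.31 in hybrids, against 0.38, 0.01, 0.56 and 0.47 in mauritiana and -0.41, -0.29 and -0.63 in simulans. The hybrid arrays lay above all parental arrays for both genes. The differences from the parental mean were 1.36 for mRpL40 (SE 0.30, limma adjusted p = 0.0190) and 1.25 for mRpL19 (SE 0.31, limma adjusted p = 0.0338).

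None of the 37 genes was called in the same direction against both parents of the mauritiana hybrid, beside 0.764% of all genes, and 2 had unadjusted p under 0.05 against both. Genes that separated the parents went different ways. mRpS34 had -3.58, -2.84 and -2.79 in mauritiana hybrids, a difference of -2.01 from mauritiana (SE 0.42, limma adjusted p = 0.0068) and no call against simulans (0.78, SE 0.45, limma adjusted p = 0.379). mRpS7 had 0.39, 1.78 and 1.65, above mauritiana by 2.04 (SE 0.42, limma adjusted p = 0.0062). mRpL18 had -1.28, -0.81 and -2.32, a difference of -2.28 from simulans (SE 0.47, limma adjusted p = 0.0123) and no call against mauritiana (0.31, SE 0.44, limma adjusted p = 0.837). Against simulans 3 of 37 genes were called (8.11%, beside 3.6% of all genes) and against mauritiana 3 (8.11%, beside 4.5%). With the closest pairs averaged limma called 0 genes against simulans (4 at an unadjusted p under 0.05; mRpL18 at an adjusted p of 0.0875), while the 3 against mauritiana, mRpS34, mRpS7 and mRpL40, kept their calls. Against simulans limma also called 0 genes without simulans array 1, 2 or 3 or hybrid array 3 (4, 3, 5 and 4 at an unadjusted p under 0.05), and 1 without hybrid array 2. Against mauritiana the call of mRpS7 was lost without hybrid array 2 (limma adjusted p = 0.0553).

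In the mauritiana hybrid against the parental mean limma called 0 genes with the closest pairs averaged (5 at an unadjusted p under 0.05), and 0 without simulans array 2, hybrid array 2 or hybrid array 3 (6, 4 and 3). Without simulans array 1, simulans array 3 or mauritiana array 1 the count was 1. Of 5 accessory gland markers 1 was higher in the hybrid, with array medians of -0.76 to 0.12 in mauritiana hybrids, -1.83 to -0.60 in mauritiana and -3.07 to -1.81 in simulans, and their part in these calls was not tested.

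Sechellia hybrid testes had 1 call of 37 against the mean of simulans and sechellia (2.7%, beside 5.82% of all genes called and 1.04% called higher). mRpS26 had 0.67 and 0.03 on 2 sechellia hybrid arrays, with no value on array 2, against -2.38, -4.80 and -4.82 in sechellia and -0.31, -0.38 and 0.12 in simulans. The difference of 2.45 (SE 0.48, limma adjusted p = 0.0082) rests on the sechellia values, since hybrid and simulans arrays overlapped. No gene was called against both parents, beside 1.35% of all genes, and none had unadjusted p under 0.05 against both. Against simulans alone, 7 genes were lower (18.9%, beside 13.6% called and 12.3% called lower of all genes), led by mRpS35 with -0.41, -0.70 and -1.0 in sechellia hybrids and 2.03, 2.07 and 1.71 in simulans (difference -2.64, SE 0.42, limma adjusted p = 0.000623). mRpS7 followed with -1.17, -1.61 and -0.16 (difference -2.20, SE 0.45, limma adjusted p = 0.0030). After averaging the closest pairs mRpS35 was the 1 gene still called against simulans (limma adjusted p = 0.0324), and mRpS7 was not (limma adjusted p = 0.0590). That count was 3 without simulans array 1 or 2 and 4 without hybrid array 1. Against sechellia 3 were higher (8.11%, beside 11.4% called and 5.4% called higher of all genes): mRpS11, mRpS17 and mRpS26. Their means were 0.22, 0.01 and 0.35 in the hybrid and -2.24, -4.34 and -4.0 in sechellia. The sechellia SDs were 1.99, 2.72 and 1.40. With the closest pairs averaged mRpS17 and mRpS26 kept their calls. All 3 calls were lost when only the arrays of the hybrid and its parents were fitted. The count against the parental mean was 7 without sechellia array 1, 2 without mauritiana array 2 or 3, and 0 by limma without sechellia hybrid array 1 or with the closest pairs averaged (5 and 4 at an unadjusted p under 0.05). Of 5 late spermatid markers 2 were lower than the parental mean, with array medians of -0.53 to 0.08 in sechellia hybrids, -0.44 to 1.46 in sechellia and 1.05 to 1.44 in simulans, and their part was not tested.

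Considering all groups, mRpL18 had its ratios above 0 on all 6 simulans and melanogaster arrays and below 0 on all 16 others. mRpS34 was below -2.5 on all arrays of 5 groups and above -2 on all arrays of melanogaster hybrids and mauritiana. Without sechellia the widest ranges of group means were those of mRpS18B (4.00), mRpS34 (3.85), mRpL37 (3.06), mRpS35 (2.64) and mRpL18 (2.59). The widest mean ranges over the rows of 1 gene outside sechellia were those of mRpL50 (0.91), mRpL10 (0.90) and mRpS11 (0.85). Each has 4 rows, and a range over 4 rows tends to be wider than one over 2 rows. The 2 spot pairs of mRpS11 averaged 1.33 and 0.15 in melanogaster, so its melanogaster value depends on the pair used. mRpL10 averaged -1.38 and -0.77 in mauritiana on its pairs, and 0.19 and 0.08 in simulans, so both put mauritiana lower.

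Other genes of mitochondrial translation, among them tRNA ligases, elongation factors and ribosome recycling factors, were followed beside the ribosomal proteins. Of 12 tested, 5 were higher in melanogaster testes than in whole males and none was lower, beside 30.4% and 13.9% of all genes. TrpRS-m, the tryptophan tRNA ligase, was higher by 2.43 (SE 0.34, limma adjusted p = 9.27e-06), and ValRS-m, the valine tRNA ligase, by 1.91 (SE 0.37, limma adjusted p = 0.000302). Array medians of these 12 genes were -0.19 to 0.05 in melanogaster hybrids, 0.51 to 1.95 in mauritiana, 0.20 to 0.28 in simulans and 0.48 to 0.92 in melanogaster. In mauritiana their median was thus above that of simulans on all arrays, where the median of the ribosomal protein genes was below. Single genes of both lists went the other way. AsnRS-m, mIF2, TyrRS-m and mRRF1 had lower means in mauritiana than in simulans, and 10 of the 37 ribosomal protein genes had a difference above 0. Against simulans, mauritiana had 3 of the 12 called higher and none lower, beside 6.74% and 4.29% of all genes.

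In melanogaster hybrids 3 of these 12 genes were lower and none was higher, beside 19.6% and 12.4% of all genes. TrpRS-m had -1.84, -2.16 and -2.21 in hybrids, against 1.96, 1.91 and 1.17 in simulans and 2.31, 2.30 and 2.67 in melanogaster (difference -4.12, SE 0.42, limma adjusted p = 1.70e-07). mEFTs, the nucleotide exchange factor of mitochondrial elongation, had -2.55, -2.26 and -2.53 in hybrids, against 1.60, 1.59 and 1.20 in simulans and 1.83, 1.75 and 1.15 in melanogaster (difference -3.97, SE 0.43, limma adjusted p = 4.16e-07). Both genes had hybrid arrays far below every parental array, with larger fitted falls than any ribosomal protein gene tested. Of 6 genes of mitochondrial DNA maintenance and transcription tested, 2 were higher in melanogaster testes than in whole males, beside 30.4% of all genes. These were mTTF, by 1.44, and TFAM, by 1.33. The differences of the 6 genes in the hybrid ran from -0.25 to 0.46 with no call.

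Respiratory chain subunits and cytosolic ribosomal proteins showed other patterns. Of all genes tested, 44.3% were called in melanogaster testes against whole males, 30.4% higher and 13.9% lower. In melanogaster hybrids against the parental mean 32% were called, 12.4% higher and 19.6% lower. Of 27 standard respiratory chain genes 18 were called in melanogaster testes against whole males, 4 higher and 14 lower, among them Cyt-c1 (-3.08) and ATPsynD (-1.84). Of 9 testis-biased copies 8 were higher there, among them COX6CL (3.88) and COX6AL (3.05), and 7 were lower in melanogaster hybrids, with COX7AL at -4.93 and COX6CL at -4.37. In the hybrid 7 standard respiratory chain genes were called, 1 higher and 6 lower, with ND-B22 at -2.52 and ATPsynB at -1.82. Of 19 cytosolic ribosomal protein genes 11 were called in melanogaster testes against whole males, 4 higher and 7 lower, with RpL23 at -2.46 and RpL27 at -1.99. In melanogaster hybrids 12 of these 19 were higher and 1 lower than the parental mean, with RpL17 at 3.64 and RpS28b at 2.22. Their array medians were 0.42 to 0.93 in melanogaster hybrids, -1.27 to -0.93 in simulans and -1.05 to -0.76 in melanogaster, without overlap. The median of the mitochondrial ribosomal protein genes moved by far less between these groups.

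**Figure D5:**
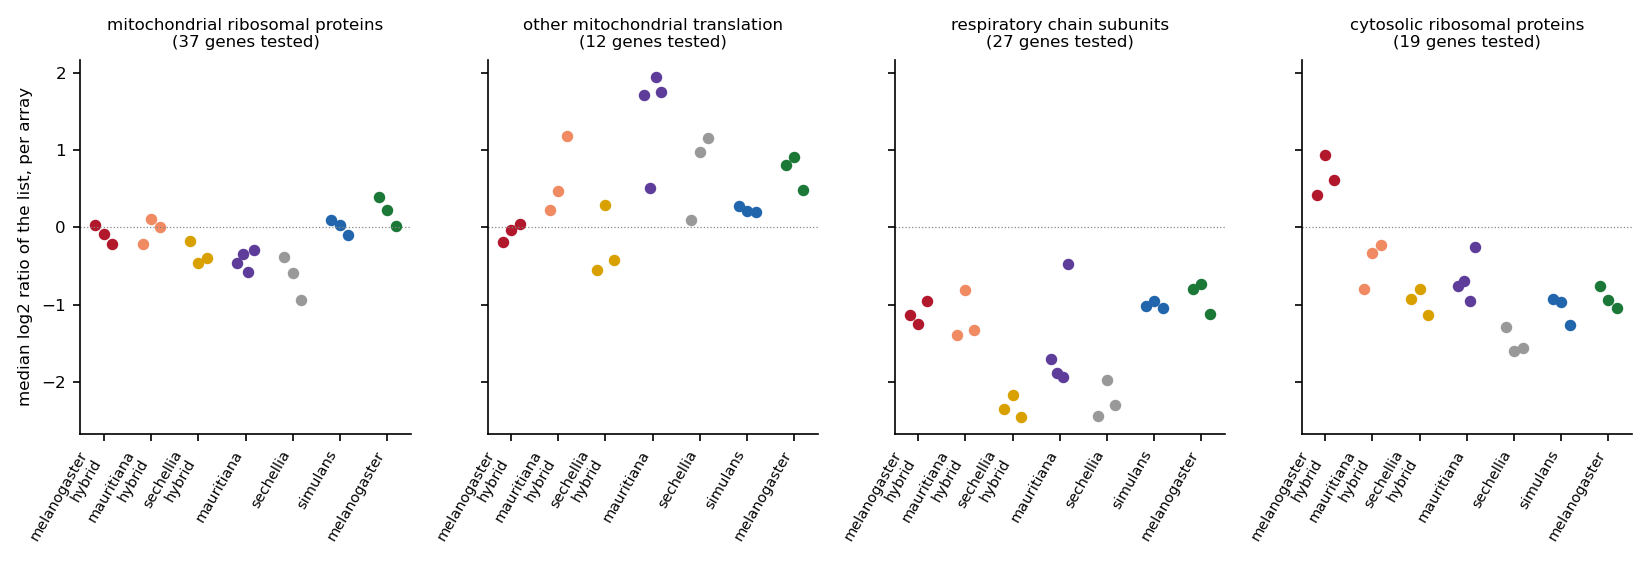
Median log2 ratio of testes over whole melanogaster males per array (points) for 4 gene lists, by group. Mitochondrial ribosomal proteins stay between -0.94 and 0.39 on all arrays, other mitochondrial translation genes reach their highest medians on 3 mauritiana arrays, and cytosolic ribosomal proteins are above 0 in melanogaster hybrids alone.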

How the data were processed

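Two-colour arrays were hybridised with amplified testis RNA (Cy5) and RNA extracted from D. melanogaster whole males (Cy3), with no dye swap, per the labels' protocols. The deposited numbers were read as a log2 scale with testes on top of the ratio. The sample titles and the low values of organ markers gave the direction, and the base was inferred. Background correction, normalization and filters are not given in the sources used here, and the medians of the deposited columns ran from -0.87 to 0.82. Hybridisation intensities were not used, so signal over background is unknown.

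Each array was centred on the median of its rows with 1 gene symbol, and rows of a gene were averaged. Symbols came from the platform's probe table: 15116 rows had 1 symbol, 102 several, and 12430 were not listed. A gene was tested where every one of the 7 groups had 2 or more arrays with a value for it. limma 3.58.1 in R 4.3.3 fitted group means over all 22 arrays, with Benjamini-Hochberg adjustment over 5107 genes and a threshold of 0.05. Hybrids were set against the mean of their parents and against each parent. The fit was tested on simulated data. Same-numbered arrays correlated with -0.33 to 0.37, above 0.1 throughout in 1 of 21 group pairs, simulans with melanogaster, where the blocked value is given beside the result. Elsewhere numbers were not used as pairs.

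The genes, the gene lists and the tests were chosen with earlier results of these data known. Named genes were, for each comparison, up to 6 called in each direction with the smallest p. The 5 highest and 5 lowest in melanogaster were named too, as were the 5 with the widest range of group means. The 3 with the widest mean range of rows and up to 2 called per other list were also named. The mitochondrial ribosomal proteins tko and bonsai had no row under these symbols and were not analysed here. Gene classes by number took proteins up to L36 and S21 as the bacterial range. Marker lists covered late spermatids, accessory gland, muscle, gut, eye and fat body. In melanogaster testes against whole males 5 of 8 muscle, 3 of 5 eye and 3 of 5 fat body genes were called lower. No sequences or coordinates were used. Alternatives covered centring, scaling, filters, rows, arrays fitted, array weights, a replicate block, averaged pairs and each array left out. The treatment of exact zeros, centring on the genes tested, and leaving out sechellia with pairs averaged were chosen after seeing the data.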

Additional observations from a re-analysis of the deposited data

Results flagged for a closer look

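2 of 30 mitochondrial ribosomal protein genes had 1 mauritiana array far from the other 3, in both cases array 4. mRpL54 was at 1.87 there and at -0.23, -0.27 and -0.30 on the others, and mRpS30 at 1.33 against -0.08, -0.14 and -0.30. Chance alone gives such a gap in about 1 in 20 groups.

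The effects of hybridisation, each a hybrid minus its parental mean, were set against each other with a contrast in the same fit. The hybrids share the simulans arrays. Between the melanogaster and mauritiana hybrids the effects differed for 4 of the 37 genes, beside 23% of all genes: mRpS34 by 4.34 (SE 0.49, limma adjusted p = 2.11e-06), mRpS7 by -2.19 (SE 0.49, limma adjusted p = 0.0022), mRpL40 by -1.58 (SE 0.39, limma adjusted p = 0.0050) and mRpS18B by -2.37 (SE 0.80, limma adjusted p = 0.0346). The effect was higher in the melanogaster hybrid for mRpS34 and lower there for the other 3. With the closest array pairs averaged 3 of these calls were kept and that of mRpS18B was lost; it held in 15 of 22 fits with 1 array left out.

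Between the melanogaster and sechellia hybrids they differed for 4 genes, beside 14.5% of all genes: mRpS34 by 3.56 (SE 0.50, limma adjusted p = 4.92e-05), mRpS26 by -2.46 (SE 0.59, limma adjusted p = 0.0082), mRpL33 by 1.54 (SE 0.47, limma adjusted p = 0.0326) and mRpS17 by -2.79 (SE 0.90, limma adjusted p = 0.0424). mRpS26 and mRpS17 have the scattered sechellia values given above in their parental mean. mRpS34 was the 1 gene still called with the closest pairs averaged. The call of mRpS17 held in 7 of 12 alternative settings and in 6 of 22 fits with 1 array left out, that of mRpL33 in 9 of 11 and 15 of 22, and that of mRpS26 in 8 of 10 and 21 of 22. Between the mauritiana and sechellia hybrids mRpL40 differed by 1.39 (SE 0.39, limma adjusted p = 0.0471) and mRpS7 by 1.83 (SE 0.49, limma adjusted p = 0.0364), 2 genes, beside 4.5% of all genes. The call of mRpL40 held in 7 of 22 fits with 1 array left out and that of mRpS7 in 16 of 22, and each held in 9 of 12 alternative settings. With the closest pairs averaged limma called 0 genes here, with 6 at an unadjusted p under 0.05.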

How the results depend on the processing

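Over all alternatives and left-out arrays, 3736 values of single called genes were recomputed. Of these 3341 kept their direction and their side of the threshold, 395 kept their direction and lost the call, and 0 reversed. mRpS34 and mRpL18 in mauritiana against simulans and melanogaster, and mRpS34, mRpL18 and mRpS18B in the melanogaster hybrid against the parental mean, passed under every alternative and left-out array. So did mRpS34, mRpS18B, mRpS16, mRpS22, mRpS35, mRpL15 and mRpL40 in melanogaster testes against whole males, each under the alternatives that tested it. Centring removed medians of -0.82 to 0.75 from the arrays. The precision is limited by 3 or 4 arrays a group and by the sechellia arrays.

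Counts of called genes that moved by over 1.5 times follow, with causes not tested. The shares of all genes called under these alternatives and left-out arrays are not given here or above. The counts therefore describe how stable the calls were and cannot be set against the whole array. Without centring they were 6 (mauritiana against sechellia), 0 (mauritiana hybrid) and 6 (sechellia hybrid, all lower). With arrays scaled to 1 spread they were 4 (mauritiana against sechellia), 5 (sechellia hybrid, 1 higher and 4 lower) and 1 (mauritiana hybrid outside both parents). With quantile normalization they were 1 (simulans against melanogaster), 4 (mauritiana against sechellia, 3 higher and 1 lower), 6 (sechellia hybrid, 1 higher and 5 lower) and 1 (mauritiana hybrid outside both parents). Centring on the genes tested gave 2 in the sechellia hybrid, 1 in each direction. Splits of higher and lower calls also moved for the melanogaster hybrid (3 and 7 with quantile normalization, 2 and 6 with scaling), for the mauritiana hybrid (2 and 1 with quantile normalization) and for melanogaster testes against whole males (9 and 4 when centred on the genes tested).

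Genes with a value on all 22 arrays gave 7 (mauritiana against melanogaster) and 2 (sechellia hybrid), and 1 row per gene gave 1 (mauritiana hybrid) and 0 (sechellia hybrid). A fit to only the arrays of the groups compared gave 23 (melanogaster testes against whole males), 5 (simulans against melanogaster), 7 (mauritiana against melanogaster), 11 (mauritiana against simulans), 8 (sechellia against melanogaster), 6 (sechellia against simulans), 0 (mauritiana against sechellia), 11 (melanogaster hybrid), 0 (sechellia hybrid) and 8 (melanogaster hybrid outside both parents). Array weights gave 29, 24, 17 and 22 in the first 4 of these, and 6 (mauritiana against sechellia), 16 (melanogaster hybrid), 5 (sechellia hybrid), 11 (melanogaster hybrid outside both parents) and 1 (mauritiana hybrid outside both parents). The replicate number as a block gave 1 (simulans against melanogaster) and 8 (mauritiana against melanogaster), and no other count moved by over 1.5 times with this block.

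Averaging the closest pairs gave 8 (melanogaster testes against whole males), 2 (mauritiana against melanogaster), 2 (mauritiana against simulans), 7 (sechellia against simulans), 3 (melanogaster hybrid), 0 (mauritiana hybrid) and 0 (sechellia hybrid). Leaving out sechellia gave 1 (simulans against melanogaster), 11 (mauritiana against melanogaster) and 13 (mauritiana against simulans), and with pairs averaged as well 4 in the melanogaster hybrid.

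With each array left out in turn, counts ran from 9 to 17 for melanogaster testes against whole males, 0 to 1 for simulans against melanogaster, 2 to 10 for mauritiana against melanogaster, 4 to 9 for mauritiana against simulans, 12 to 17 for sechellia against melanogaster, 10 to 15 for sechellia against simulans and 7 to 13 for mauritiana against sechellia. They ran from 3 to 8 in the melanogaster hybrid, 0 to 3 in the mauritiana hybrid, 0 to 7 in the sechellia hybrid, 2 to 4 in the melanogaster hybrid outside both parents, and were 0 throughout outside both parents in the other hybrids. Over the other settings, 80.9 to 89.2 percent of the genes tested were below 0 in mauritiana against melanogaster (52.2 to 62.2 percent of all genes), and 63.6 to 81.1 percent in mauritiana against simulans (46.1 to 60.1 percent of all genes).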
